A study of Mus musculus with 10 samples.

Results

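The carbonic anhydrases described here were 9 genes, Car2, Car3, Car4, Car5b, Car8, Car9, Car12, Car13 and Car14, taken by symbol from a table of 18725 mouse genes. All 9 were found, and all 9 had enough counts to be tested. Of these, 8 had at least 10 counts in every library, whereas Car4 passed the count filter through the euthyroid libraries only. The table held 16 genes of the family in all, the other 7 being Car1, Car5a, Car6, Car7, Car10, Car11 and Car15. RNA was sequenced from the cochlear outer sulcus, dissected with the spiral ligament beneath it, of C57BL/6J mice at postnatal day 10. The 5 hypothyroid libraries came from offspring of mice given drinking water with methimazole at 0.05%, sodium perchlorate monohydrate at 1.0% and sucrose at 5.0% from embryonic day 17, through lactation, to postnatal day 10. The 5 euthyroid libraries came from offspring of mice given vehicle over the same time. Both agents lower thyroid hormone, methimazole by blocking its synthesis and perchlorate by blocking iodide uptake, and they reached the pups through the mothers. The labels do not say whether each library is a separate animal, and the litters were not known here, so litter and treatment cannot be told apart. The extraction text of the same labels speaks of femoral head cartilage at postnatal day 22, whereas every other label names the cochlea.

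Carbonic anhydrases speed the exchange between carbon dioxide and bicarbonate with a proton, a reaction on which acid secretion, bicarbonate transport and fluid secretion depend. The isozymes sit in different places. Some are in the cytosol, some in mitochondria, and others face the outside of the cell from a membrane anchor, and a few relatives have lost the catalytic activity. In the cochlea the enzymes are known from fibrocytes of the spiral ligament and from epithelia that border the endolymph, where root cells also carry the bicarbonate exchanger pendrin.

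Library totals ran from 19298145 to 19407592 estimated counts in hypothyroid and from 19781921 to 20063961 in euthyroid libraries. All 11 listed genes of outer sulcus and root cells were detected, with a summed level of 4255 to 5185 TPM in hypothyroid and 8316 to 9688 TPM in euthyroid libraries (TPM, a relative transcript abundance, is adjusted for gene length). Of the 10 spiral ligament fibrocyte genes found, 7 fell and 2 rose. The quasi-likelihood test of edgeR called 71.8% of the 14862 tested genes at a threshold of 0.05 on the adjusted p, and of all tested genes 37.7% were higher and 34.1% lower in hypothyroid libraries. A scaling by TMM factors, which balance library composition, gave 52.5% of called genes as higher, while library sizes alone gave 74.7%. Over all genes the log2 fold change had a median of 0.04 with TMM factors and of 0.30 with library sizes alone, and a change smaller than this shift can turn round with the scaling.

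Most of the carbonic anhydrase transcripts were lower in hypothyroid tissue. Of the 9 genes, 6 fell (Car2, Car3, Car4, Car5b, Car13 and Car14), 2 rose (Car8 and Car9), and Car12 did not pass, where 34.1% of all tested genes fell and 37.7% rose. With TMM factors, decreases of at least 2-fold were seen in 3 of the 9 (7.91% of all genes) and an increase of that size in 1 of the 9 (9.25% of all genes). The median log2 fold change of the 9 was -0.64, beside 0.04 over all tested genes. The groups did not overlap in CPM (counts relative to library size, scaled by TMM factors) for 7 of the 9, where 57.9% of all genes did not overlap. Car4 is in each of these counts of decreases and of genes without overlap, though it passed the count filter through euthyroid libraries only. In bulk tissue, fewer cells of a type and less RNA per cell cannot be told apart.

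**Figure D1:**
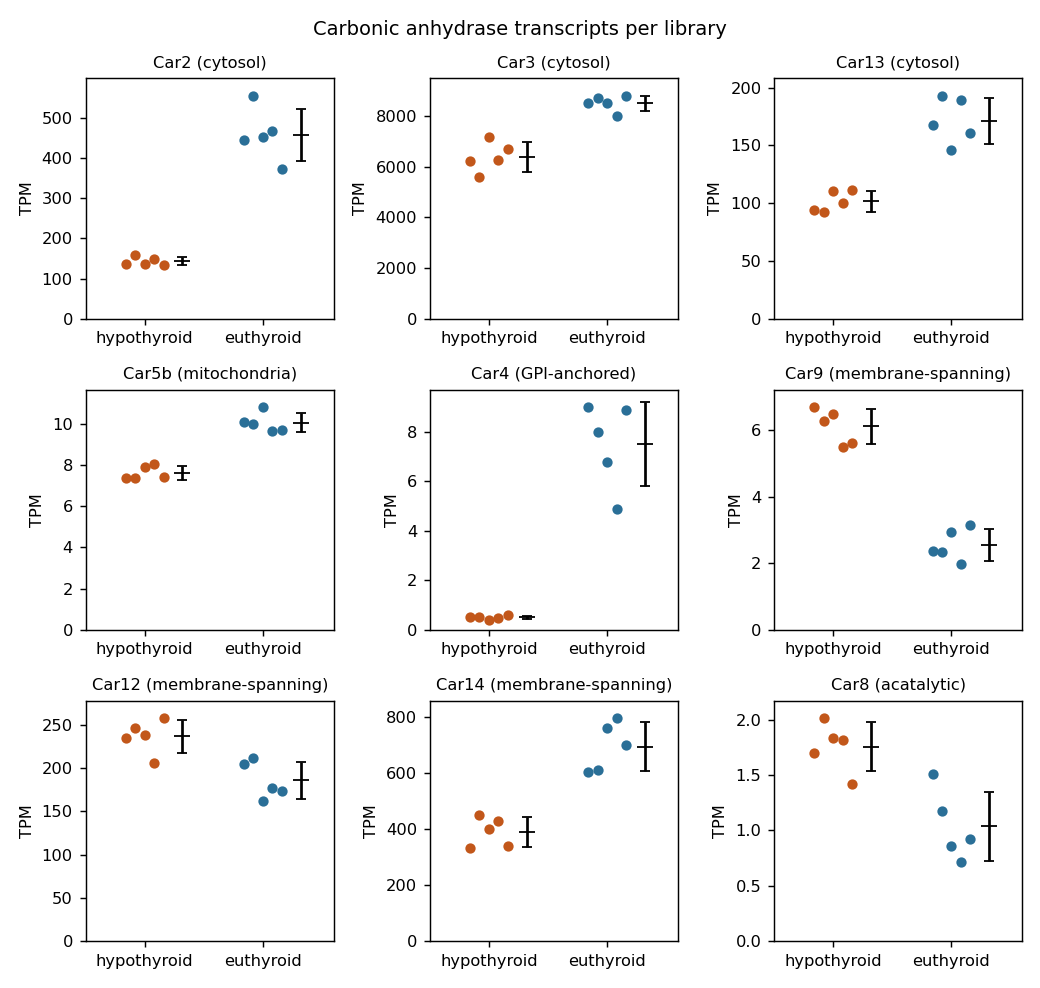
Level in TPM of each of the 9 carbonic anhydrase genes, 1 panel a gene, with hypothyroid libraries left (orange) and euthyroid libraries right (blue). Points are the 5 libraries of a group in order of replicate and the black bars mean ± SD. Car4 lies between 0.39 and 0.61 TPM in hypothyroid libraries and between 4.90 and 8.99 TPM in euthyroid ones, whereas the points of Car8 overlap between the groups.

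The levels covered a wide range, and the order differed in places between the groups. In hypothyroid libraries the order by mean TPM was Car3, Car14, Car12, Car2, Car13, Car11 and Car5b, with no overlap between any of these neighbours. In euthyroid libraries it was Car3, Car14, Car2, Car12, Car13, Car11 and Car5b, and only Car12 and Car13 overlapped. Car2 thus stood below Car12 in each hypothyroid library and above it in each euthyroid one. Below Car5b, most neighbours in the order overlapped in either group.

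Among the cytosolic enzymes of the 9, Car2, the fast isozyme found in many secretory epithelia, in red blood cells and in osteoclasts, had the largest decrease. Car2 had 137, 159, 136, 150 and 135 TPM in hypothyroid libraries 1 to 5, against 446, 555, 452, 467 and 374 TPM in euthyroid libraries 1 to 5. The lowest euthyroid library was more than double the highest hypothyroid one. On the CPM scale Car2 averaged 91.6 ± 7.43 in hypothyroid and 340 ± 43.0 in euthyroid libraries (SD, n = 5 each), a 3.71-fold decrease (edgeR adjusted p = 1.47e-10, with a log2 fold change of -1.89 and an SE of 0.084). By mean TPM, Car2 stood at position 1179 of all genes in hypothyroid and at position 286 in euthyroid tissue.

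Car3 was the dominant family member in both groups. It encodes a cytosolic isozyme with low hydration activity that is best known from skeletal muscle and fat. Its TPM values were 6222, 5595, 7164, 6250 and 6688 in the hypothyroid libraries, against 8492, 8711, 8528, 8006 and 8779 in the euthyroid libraries. The groups did not overlap, and the spread was wider among the hypothyroid libraries (9.16% of the mean) than among the euthyroid ones (3.56%). Car3 ranked sixth by mean TPM in either group, and took 0.395% of all counts in hypothyroid and 0.512% in euthyroid libraries. The decrease was 1.56-fold (edgeR adjusted p = 3.74e-07, with a log2 fold change of -0.64 and an SE of 0.065). Genes of muscle and fat, where Car3 is best known, were low in the same libraries. Of 11 skeletal muscle genes 4 could be tested, of which Tnnt3 and Atp2a1 rose, Pvalb fell and Mylpf was not called. Pvalb met the count filter through euthyroid libraries only, so it could enter the test only as a gene that differs. Tnnt3, a fast muscle troponin, averaged 6.51 ± 1.11 TPM in hypothyroid and 1.03 ± 0.16 TPM in euthyroid libraries, and Pvalb, the calcium buffer parvalbumin, 0.054 ± 0.12 TPM in hypothyroid and 5.03 ± 1.88 TPM in euthyroid libraries (SD, n = 5 each). None of the adipocyte genes had enough counts to be tested. Summed over 11 skeletal muscle genes the level was 9.22 to 12.7 TPM in hypothyroid and 6.34 to 11.8 TPM in euthyroid libraries, and summed over 6 adipocyte genes it was at most 0.47 TPM in hypothyroid and 0.61 TPM in euthyroid libraries. The part of muscle and fat in the level and change of Car3 was not tested.

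Car13, a further cytosolic isozyme, fell 1.97-fold (edgeR adjusted p = 3.74e-08, with a log2 fold change of -0.98 and an SE of 0.076). It had 93.9, 92.1, 111, 99.8 and 111 TPM in hypothyroid libraries, against 168, 193, 146, 189 and 161 TPM in euthyroid libraries. The highest hypothyroid library lay below the lowest euthyroid one. Car13, Car1, Car3 and Car2 lie in this order on chromosome 3 of GRCm38, between 14641727 and 14900770, with gaps of 103.21, 55.14 and 13.75 kb. Other genes in the gaps were not looked for. Car1, the red blood cell isozyme, lies on the opposite strand to the other genes of this row. Car1 had 3.28 to 5.93 TPM in hypothyroid and 2.50 to 4.25 TPM in euthyroid libraries and was not called (edgeR adjusted p = 0.45, log2 fold change 0.17). Thus 3 of these 4 genes fell, by 1.56- to 3.71-fold, where 34.1% of all tested genes fell. Whether their position plays a part was not tested.

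Car5b, the mitochondrial isozyme of many tissues, fell 1.54-fold (edgeR adjusted p = 2.06e-06, with a log2 fold change of -0.62 and an SE of 0.074). Its values were 7.38, 7.36, 7.91, 8.07 and 7.43 TPM in hypothyroid libraries, against 10.1, 10, 10.8, 9.67 and 9.72 TPM in euthyroid libraries. Both groups were tight, with an SD of 4.38% of the mean in hypothyroid and 4.50% in euthyroid libraries. The gene lies on chromosome X from 163976822 to 164027997. The size of the decreases depended on scaling. With library sizes alone the log2 fold changes of Car3 and Car5b were -0.37 and -0.36, and relative to the median of all genes in that fit they were -0.68 and -0.66. In the same fit Car13 was at -0.715 and Car14 at -0.80, so Car14 fell less than 2-fold there.

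The 4 enzymes that face the outside of the cell moved in different directions. Car4, which is held by a lipid (GPI) anchor and known from capillaries of the lung and from the kidney, had the largest fold change of the 9. Car4 had 5, 5, 4, 5 and 6 counts in hypothyroid libraries, against 91, 81, 68, 49 and 90 counts in euthyroid libraries. In TPM these were 0.39 to 0.61 in hypothyroid and 4.90 to 8.99 in euthyroid libraries, a 17.3-fold decrease in the fit (edgeR adjusted p = 5.90e-10, with a log2 fold change of -4.11 and an SE of 0.24). The count filter was met in euthyroid libraries alone, so Car4 could only enter the test as a gene that differs. Its level was low in both groups, and adding 1 before taking logs gave log2 fold changes of -2.48 on TPM and -1.72 on FPKM. Capillary endothelium was measured in the same libraries. Of its 8 listed genes 6 fell, 1 rose and 1 stayed short of the threshold. Their log2 fold changes had a median of -0.37, with summed levels of 698 to 772 TPM in hypothyroid and 794 to 927 TPM in euthyroid libraries. The falls were uneven. Pecam1 (58.4 TPM in hypothyroid and 60.1 TPM in euthyroid libraries) and Cdh5 (70.6 and 70.7 TPM) hardly differed in mean TPM. With TMM factors both were called lower, at log2 fold changes of -0.26 for Pecam1 and -0.23 for Cdh5. These are near the size of the shift between scalings given above. In the same fit Emcn (-0.47), Kdr (-0.53), Tie1 (-0.81) and Plvap (-1.99) fell, and Cldn5 (-0.12) was not called. Gpihbp1 was the gene that rose (1.80). The part of capillary endothelium in the change of Car4 was not tested.

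Car14, a membrane-spanning enzyme with its catalytic domain outside the cell, was the second most abundant member by TPM. It had 331, 450, 399, 428 and 340 TPM in hypothyroid libraries, against 605, 612, 761, 795 and 702 TPM in euthyroid libraries. All hypothyroid libraries lay below all euthyroid ones, and the decrease was 2.10-fold (edgeR adjusted p = 5.46e-06, with a log2 fold change of -1.07 and an SE of 0.12). Exons of Car14 overlap exons of Aph1a, a subunit of the gamma-secretase complex, on the opposite strand. Of all 50-base stretches of the annotated Car14 transcripts, 15.7% also occur in Aph1a transcripts, and since the strand of the libraries is not stated, reads there could not be told apart. Aph1a itself had 112 ± 4.12 TPM in hypothyroid and 126 ± 3.35 TPM in euthyroid libraries (SD, n = 5 each). In the edgeR fit with TMM factors, a scale other than TPM, it fell 1.30-fold.

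Car12, another membrane-spanning enzyme with an outer catalytic domain, was the only member whose call turned on the scaling. Its values were 235, 247, 239, 206 and 258 TPM in hypothyroid libraries, against 205, 212, 162, 177 and 173 TPM in euthyroid libraries. Hypothyroid library 4 lay below euthyroid library 2 and just above euthyroid library 1, and the other hypothyroid libraries lay above all euthyroid ones. With TMM factors the log2 fold change was 0.13 (SE 0.070, 95% interval -0.010 to 0.27, edgeR adjusted p = 0.117). Without hypothyroid library 4 it was 0.18 (adjusted p = 0.0216), and with library sizes alone it was 0.39 (adjusted p = 0.000226), over a range of 0.000226 to 0.318 in 19 alternatives. Relative to the median of all genes it was 0.09 with TMM factors and also 0.09 with library sizes alone.

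Car9, the third membrane-spanning enzyme and a textbook target of hypoxia-inducible factor, was higher in hypothyroid tissue, at a low level. It had 6.68, 6.27, 6.48, 5.50 and 5.61 TPM in hypothyroid libraries, against 2.36, 2.35, 2.93, 1.98 and 3.14 TPM in euthyroid libraries. Each hypothyroid library exceeded each euthyroid one, and the increase was 2.03-fold (edgeR adjusted p = 1.81e-05, with a log2 fold change of 1.02 and an SE of 0.15). An exon of the antisense gene Gm12454 overlaps Car9, with 4.76% of its 50-base stretches shared with other transcripts. Among 15 other targets of hypoxia-inducible factor 2 rose, 8 fell and 5 stayed short of the threshold. Their log2 fold changes had a median of -0.20, while library sizes alone gave 4 higher and 5 lower and a median of 0.06. The pair that rose was Ankrd37 (log2 fold change 1.41) and the vessel growth factor gene Vegfa (0.38). Pdk1, which restrains pyruvate entry into mitochondria, fell 2.05-fold (200 ± 18.7 CPM in hypothyroid and 411 ± 33.0 CPM in euthyroid libraries). The glycolytic kinase gene Pgk1 fell 1.52-fold (169 ± 15.99 CPM in hypothyroid and 257 ± 12.2 CPM in euthyroid libraries; SD, n = 5 each).

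The start regions of the membrane-bound members are shown because these genes moved in opposite directions. Each run covers 250 bases before and 50 bases after the start site in RefSeq on GRCm38.p6, read along the gene. A sequence was found for 5 of the 9 members (Car4, Car5b, Car9, Car12 and Car14). Capitals mark ACGTG, the core of the hypoxia response element, which was searched on both strands and reads CACGT where it lies on the opposite one.
Car4, plus strand, chr11:84957504-84957803: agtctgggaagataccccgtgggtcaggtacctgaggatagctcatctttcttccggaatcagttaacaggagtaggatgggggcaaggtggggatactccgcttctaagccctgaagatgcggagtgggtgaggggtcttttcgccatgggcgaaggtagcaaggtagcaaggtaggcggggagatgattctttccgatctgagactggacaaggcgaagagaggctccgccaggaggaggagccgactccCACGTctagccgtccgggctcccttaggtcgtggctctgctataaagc
Car9, plus strand, chr4:43506776-43507075: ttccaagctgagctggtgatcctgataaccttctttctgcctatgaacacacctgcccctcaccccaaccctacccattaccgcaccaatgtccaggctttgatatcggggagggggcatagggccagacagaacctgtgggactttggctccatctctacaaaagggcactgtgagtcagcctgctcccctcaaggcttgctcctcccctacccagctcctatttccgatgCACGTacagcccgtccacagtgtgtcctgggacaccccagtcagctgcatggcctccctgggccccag
Car12, plus strand, chr9:66713436-66713735: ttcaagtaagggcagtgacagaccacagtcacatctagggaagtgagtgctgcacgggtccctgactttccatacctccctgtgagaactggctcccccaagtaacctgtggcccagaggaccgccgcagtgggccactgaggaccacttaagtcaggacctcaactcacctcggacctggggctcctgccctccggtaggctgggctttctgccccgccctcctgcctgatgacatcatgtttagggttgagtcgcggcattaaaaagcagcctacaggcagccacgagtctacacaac
Car14, minus strand, chr3:95904636-95904935: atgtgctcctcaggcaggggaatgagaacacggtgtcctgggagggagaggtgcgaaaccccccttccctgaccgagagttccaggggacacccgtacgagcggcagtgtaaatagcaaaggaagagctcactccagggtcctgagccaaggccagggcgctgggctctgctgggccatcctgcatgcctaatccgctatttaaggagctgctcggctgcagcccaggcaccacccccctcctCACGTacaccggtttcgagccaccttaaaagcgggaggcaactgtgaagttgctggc
The match begins 18 bases before the start in Car9, 7 bases before it in Car14 and 2 bases after it in Car4, so it was present in a gene that rose and in a pair that fell. Over the 32851 start regions of this length analysed here, 19.6% held ACGTG. The letters AGGTCA, a half-site of thyroid hormone receptors, were searched on both strands in the same way. They were in none of the 5 member regions (Car4, Car5b, Car9, Car12 and Car14), and in 16.3% of all regions. A match describes letters only, and no match says only that these letters are not in this window.

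Car8, a relative that has lost catalytic activity and binds the inositol trisphosphate receptor in Purkinje cells, rose 1.46-fold at a low level (edgeR adjusted p = 0.0148, with a log2 fold change of 0.55 and an SE of 0.18). It had 1.70, 2.01, 1.83, 1.82 and 1.42 TPM in hypothyroid libraries, against 1.51, 1.17, 0.86, 0.71 and 0.92 TPM in euthyroid libraries. Hypothyroid library 5 lay below euthyroid library 1, so the groups overlapped by a single library on each side. The call was kept in all 18 alternatives that tested it, with adjusted p up to 0.0427.

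**Figure D2:**
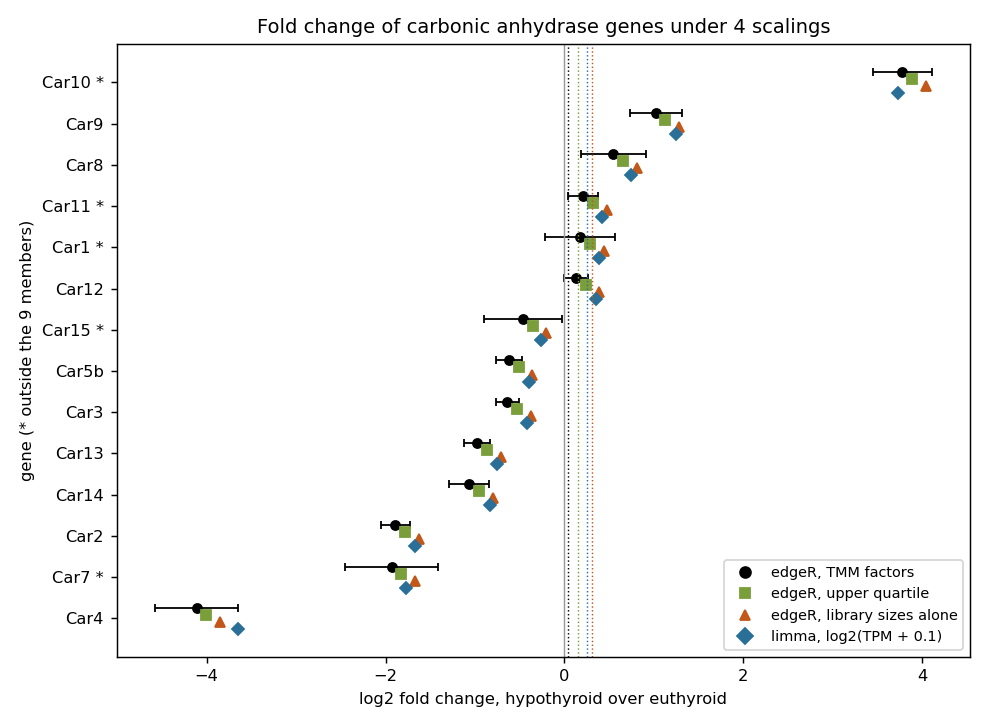
Log2 fold change, hypothyroid over euthyroid, of the 14 tested carbonic anhydrase genes, sorted, under 4 scalings (symbols). Black bars are 95% intervals of the edgeR fit with TMM factors, dotted lines the median of all genes in each fit, and asterisks genes outside the 9 members. The symbols of Car12 lie between 0.13 and 0.39.

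Of the 7 further genes of the family, 5 were tested, and among these 2 rose, 1 fell and 2 did not pass. Car10, a relative without catalytic activity known as a ligand of neurexins, rose 13.7-fold (edgeR adjusted p = 3.14e-11, with a log2 fold change of 3.78 and an SE of 0.17). It had 7.32, 6.01, 6.04, 6.06 and 7.87 TPM in hypothyroid libraries, against 0.34, 0.42, 0.30, 0.46 and 0.56 TPM in euthyroid libraries. Its fold change in the fit was close in size to that of Car4 and opposite in sign. In counts Car10 had 160 to 205 in hypothyroid and only 8 to 15 in euthyroid libraries, so the size of its increase is uncertain. Over the 19 alternatives its log2 fold change ran from 1.68, with 1 added to FPKM before taking logs, to 4.04 with library sizes alone. Car7, a cytosolic isozyme of the brain, fell 3.82-fold, with 0.64 to 1.2 TPM in hypothyroid and 2.31 to 5.00 TPM in euthyroid libraries (edgeR adjusted p = 9.22e-06). Car11, also a catalytically inactive relative, had 36.4 to 50.9 TPM in hypothyroid and 29.6 to 35.7 TPM in euthyroid libraries. Its increase of 1.16-fold passed narrowly (edgeR adjusted p = 0.0382) and was past the threshold in 10 of 19 alternatives (0.000171 to 0.114), not among them the fit with the replicate number as a block (0.0599). It was also lost without hypothyroid library 1 (0.114), 3 (0.0822) or 4 (0.0573), and without euthyroid library 1 (0.0796), 2 (0.0632), 3 (0.0903) or 4 (0.106). Car15, held by a GPI anchor, was not called by edgeR (adjusted p = 0.0712, log2 fold change -0.46; 0.0209 without hypothyroid library 2), and 58.3% of its 50-base stretches are shared with the overlapping gene Gm20518. Car5a, the liver isozyme of mitochondria, and Car6, the isozyme secreted in saliva, were too low to test, with at most 1.51 and 0.58 TPM in any library.

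The make-up of the family differed in ways that do not depend on library scaling, since ratios within a library cancel it. The share of Car3 in the summed TPM of the 16 genes overlapped between the groups, at 84.7% to 88.2% in hypothyroid and 82.6% to 85.6% in euthyroid libraries. The sum without Car3, which is a level and not such a ratio, was 880 to 1015 TPM in hypothyroid and 1481 to 1688 TPM in euthyroid libraries. Within this remainder Car2 had a median share of 15.6% in hypothyroid and 28.6% in euthyroid libraries, and Car12 had one of 24.9% in hypothyroid and 11.7% in euthyroid libraries. The shares of Car14 (37.1% to 44.6% in hypothyroid and 37.4% to 48.1% in euthyroid libraries) and of Car13 (9.07% to 12.1% in hypothyroid and 9.21% to 11.8% in euthyroid libraries) overlapped between the groups. The ratio of Car2 to Car12 in TPM was 0.523 to 0.729 in hypothyroid and 2.16 to 2.80 in euthyroid libraries. Likewise the ratio of Car2 to Car13, both cytosolic, was 1.21 to 1.72 in hypothyroid and 2.33 to 3.10 in euthyroid libraries. Neither ratio overlapped between the groups.

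**Figure D3:**
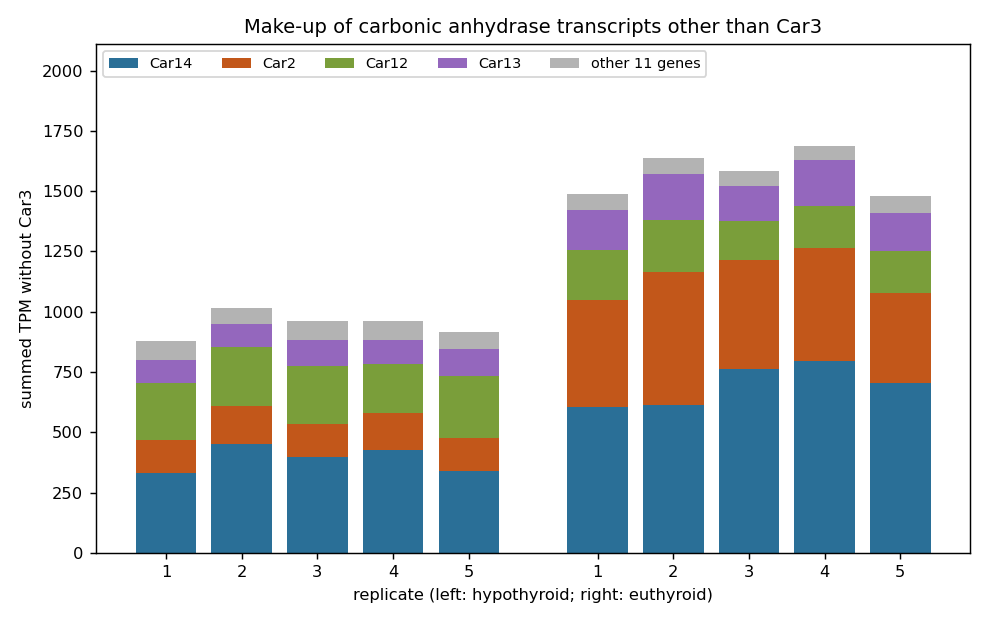
Summed TPM of the 15 carbonic anhydrase genes other than Car3 in each library, with hypothyroid replicates left and euthyroid replicates right. Colours stack Car14, Car2, Car12, Car13 and the other 11 genes; the Car2 segment is thin in the hypothyroid bars, at a median of 15.6% of the bar, and 28.6% in the euthyroid bars.

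The genes whose profile over the 10 libraries was most like that of the 3 most abundant members were found by the root-mean-square difference of log2 CPM, each gene centred on its own mean, among 11717 genes. The nearest to Car3 were Isoc2a (0.065), Palmd (0.065) and Aurkaip1 (0.066). For Car14 they were the chemokine receptor gene Ackr3 (0.072), the scaffold kinase gene Ksr1 (0.091) and Gpr146 (0.097). For Car2 they were Klhl29 (0.13), Dipk1a (0.13) and Otoa (0.14), which encodes otoancorin, a protein at the surface of inner ear supporting cells. Otoa had 3.63 TPM in hypothyroid and 11.1 TPM in euthyroid tissue (log2 fold change -1.83, beside -1.89 for Car2). As the groups differ in most genes, likeness here reflects mainly a similar fold change and a small spread.

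Genes that work beside carbonic anhydrases did not share a direction. Among 12 tested genes of the Slc4 and Slc26 families, which include bicarbonate transporters, 4 rose, 5 fell and 3 stayed short of the threshold. Their log2 fold changes had a median of -0.24, and of 0.03 with library sizes alone. The summed level of the 15 genes listed was 243 to 276 TPM in hypothyroid and 513 to 812 TPM in euthyroid libraries. The largest fold changes of the list were decreases. Slc4a10, a sodium-coupled bicarbonate transporter, had 1.67 ± 0.65 TPM in hypothyroid and 173 ± 46.7 TPM in euthyroid libraries (log2 fold change -6.92), and Slc4a11, a member of the same family, had 6.02 ± 0.824 TPM in hypothyroid and 188 ± 78.4 TPM in euthyroid libraries (log2 fold change -5.26). Slc26a4, which encodes pendrin, fell 2.11-fold (121 ± 15.9 CPM in hypothyroid and 255 ± 23.5 CPM in euthyroid libraries). In TPM it had 105 ± 13.6 in hypothyroid and 194 ± 15 in euthyroid libraries. Slc4a3, an exchanger of chloride for bicarbonate, rose 1.95-fold (73.9 ± 6.096 CPM in hypothyroid and 38.0 ± 0.941 CPM in euthyroid libraries; SD, n = 5 each). Slc4a8, a sodium-driven exchanger, fell 2.12-fold (13.5 ± 1.0991 CPM in hypothyroid and 28.5 ± 1.51 CPM in euthyroid libraries). Of 10 sodium/proton exchangers and their scaffolds 3 rose and 5 fell, and with library sizes alone 5 rose and 2 fell. Slc9a5 rose 2.87-fold (34.3 ± 2.02 CPM in hypothyroid and 11.9 ± 1.04 CPM in euthyroid libraries), whereas the scaffold gene Slc9a3r1 fell 1.67-fold in a tight set of libraries (60.7 ± 0.858 CPM in hypothyroid and 102 ± 2.42 CPM in euthyroid ones).

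Of 5 tested proton pump subunits 2 rose, 2 fell and 1 did not pass. Atp6v1b1, counted among those that rose, was barely detected in euthyroid libraries (2.84 ± 0.258 CPM in hypothyroid and 0.0658 ± 0.0458 CPM in euthyroid libraries). It met the count filter through hypothyroid libraries only. Atp6v1b1 could therefore enter the test only as a gene that differs, and the size of its increase is uncertain. Atp6v1c2 fell 1.76-fold (56.3 ± 8.26 CPM in hypothyroid and 99.3 ± 11.5 CPM in euthyroid libraries). Among 6 lactate transporter genes and their chaperones, the chaperone genes Emb (4.03-fold) and Bsg (1.76-fold) fell in the fit with TMM factors. The 4 transporter genes did not pass, and with library sizes alone 3 genes of this list were higher and 2 lower. Bsg, also called basigin, was abundant, at 1389 ± 77.0 TPM in hypothyroid and 2083 ± 69.5 TPM in euthyroid libraries (SD, n = 5 each).

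**Figure D4:**
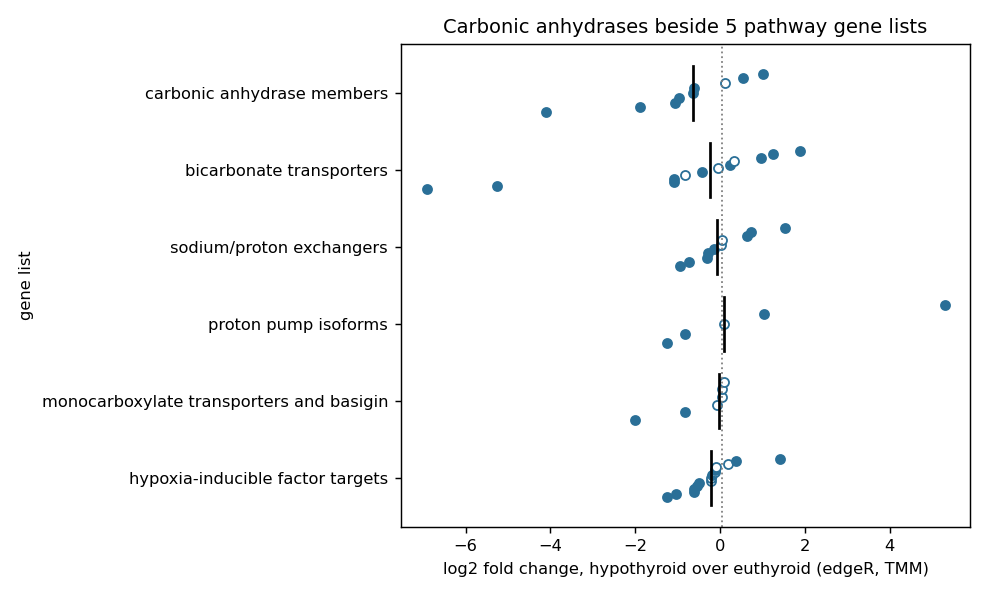
Log2 fold change, hypothyroid over euthyroid (edgeR with TMM factors), of the 9 carbonic anhydrase members and of the tested genes of 5 pathway lists, 1 row a list. Filled points passed an adjusted p of 0.05, open points did not, black lines are list medians and the dotted line is the median of all genes, 0.04. Each list other than that of the lactate transporters has filled points on both sides of 0.

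Other cell types that use carbonic anhydrases were followed in the same libraries. Of 9 tested red blood cell genes 2 fell, 7 stayed short of the threshold and 0 rose, and their summed level was 2283 to 3403 TPM in hypothyroid and 1813 to 3192 TPM in euthyroid libraries, beside the 3.71-fold decrease of Car2. All 5 tested osteoclast genes fell (median log2 fold change -1.26, with 135 to 178 TPM summed in hypothyroid and 239 to 327 TPM in euthyroid libraries). Most of this sum was Ctsk, at 128 TPM in hypothyroid and 229 TPM in euthyroid libraries. Ocstamp, Dcstamp and Calcr averaged at most 0.41 TPM in either group and were not tested. Of 10 chondrocyte genes 9 fell (median -1.36, with 20446 to 22652 TPM in hypothyroid and 45104 to 48699 TPM in euthyroid libraries). Supporting cell genes fell in 7 of 8 cases (median -1.005, with 1444 to 2164 TPM in hypothyroid and 2529 to 2857 TPM in euthyroid libraries). Most of this sum was Gjb2 (1186 TPM in hypothyroid and 1719 TPM in euthyroid libraries), which is also on the fibrocyte list. Slc1a3 is also on the list of outer sulcus and root cells. Hair cell genes fell in 6 of 8 cases (median -3.05, with 16.6 to 20.04 TPM in hypothyroid and 70.1 to 198 TPM in euthyroid libraries), Slc26a5 being at 0 in the hypothyroid libraries. Of these hair cell genes, Ocm, Slc26a5, Strc and Chrna10 averaged 0.174 TPM or less in hypothyroid libraries. They could therefore enter the test only as genes that differ, and the median rests in part on them. Myo7a, another hair cell gene, rose (log2 fold change 1.30). Of 9 melanocyte genes 8 rose and 1 fell (1095 to 2063 TPM in hypothyroid and 504 to 745 TPM in euthyroid libraries), and all 8 macrophage genes rose (550 to 729 TPM in hypothyroid and 293 to 325 TPM in euthyroid libraries). Marginal cell genes fell in 4 of 9 cases and rose in 0 (704 to 1263 TPM in hypothyroid and 889 to 1140 TPM in euthyroid libraries), and Schwann cell and oligodendrocyte genes rose in 3 of 8 and fell in 2 (354 to 407 TPM in hypothyroid and 362 to 473 TPM in euthyroid libraries). The part of these cell types in the changes of the carbonic anhydrases was not tested.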

How the data were processed

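Expected counts, which RSEM estimates and which need not be whole, were deposited by the authors per gene and library, beside TPM and FPKM values, which correct for transcript length and depth, per the file headers. HISAT2 2.0.4, Bowtie2 2.2.5 and RSEM 1.2.12 with GRCm38.p6 are named in the submitters' processing notes, without their roles. Libraries were polyA-selected and read as single ends of 50 bases, per the labels' protocols; strand is not stated. A further 18 columns of scaled counts and group means were not used.

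Expected counts were rounded. Genes were filtered with filterByExpr (minimum count 10), leaving 14862 of 18725, scaled with TMM factors (mean 1.1 in hypothyroid, 0.912 in euthyroid libraries) and tested with edgeR 4.0.16 (robust quasi-likelihood fit, group only, two-sided, Benjamini-Hochberg over all tested genes, threshold 0.05). Rounding and filtering affect low genes most, such as Car4, Car8 and Car9, and scaling affects small changes. The SE was taken from F, as the size of the log2 fold change over the root of F, and intervals take it as normal. Levels are deposited TPM or TMM-scaled CPM. Fold changes are those of the edgeR fit with TMM factors unless another fit is named, so they differ from ratios of TPM. The script was tested on simulated data. Alternatives used DESeq2 1.42.0, limma 3.58.1 on log2(TPM + 1), log2(TPM + 0.1) and log2(FPKM + 1), other scalings and filters, a replicate block, and each library left out (R 4.3.3, Python 3.11.15, matplotlib 3.10.9).

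Within groups, 20 library pairs had a chi-square per gene of 5.21 to 15.1, above sampling noise, so none was treated as a duplicate. P-values measure only the spread among these libraries, which may be technical. Named were all family genes, the 2 genes of each pathway list with the smallest adjusted p, and the 3 genes most like each of the 3 most abundant members over all libraries (mean of at least 5 CPM). Aph1a, Gm12454 and Gm20518 were added for their overlap. Slc4a10, Slc4a11, Slc26a4, Ankrd37, Vegfa and the 4 tested muscle genes were added after their values were seen. So were the hair cell genes Ocm, Strc, Chrna10 and Myo7a and the 8 capillary genes. The osteoclast genes Ctsk, Ocstamp, Dcstamp and Calcr were also added then, as were Gjb2 and Slc1a3. The members and lists were chosen with earlier results of these data known. Genes were located with GENCODE M21 on GRCm38.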

Additional observations from a re-analysis of the deposited data

Results flagged for a closer look

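Car5b in euthyroid library 3 stood apart from the rest of its group, at 16.6 CPM where the other 4 euthyroid libraries had 14.7 to 15.0 CPM. This gap was 0.816 of the range of the group, above the critical value of 0.71 for 5 samples. It was the only such value in 18 groups checked (9 genes in 2 conditions), and chance gives about 1 in 20. The library was the highest of its group, and leaving out any single library kept the log2 fold change of Car5b between -0.65 and -0.60.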

How the results depend on the processing

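Over 169 values of the 9 members under the alternatives, 163 kept both direction and side of the threshold, and the other 6 were of Car12, which passed, at the log2 fold change given, with library sizes alone (0.39), upper quartile factors (0.24), limma on log2(TPM + 1) (0.35), log2(TPM + 0.1) (0.35) and log2(FPKM + 1) (0.39), and without hypothyroid library 4 (0.18). The cause was not tested. The count of members higher was 2 or 3 and that of members lower 5 or 6. Car4 was not tested with a minimum count of 50, nor Car8 on FPKM. All genes called ran from 9698 to 11578, and from 10294 to 10663 with a library left out. With the replicate block 10392 genes were called and the members' calls were kept, Car11 being lost among the other family genes. Same-numbered libraries correlated at -0.077 to 0.11 in their deviations from group means, with 1 of 5 pairs over 0.1 and 1 of 5 best matched to its own number, so the numbers were not taken to pair the libraries. Depth limits Car4 in hypothyroid libraries, at 4 to 6 counts each.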
